A study of Rattus norvegicus with 9 samples.

Results

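The comparison described here sets brain tissue of rats with middle cerebral artery occlusion (MCAO) against brain tissue of rats that had a sham operation. It uses 6 of the 9 libraries of the study, 3 per group, and the 14493 of 32883 listed genes that reached 1 FPKM (fragment numbers scaled to transcript length and library size) in at least 3 of these 6. Neither group received Panax notoginseng. The remaining 3 libraries came from rats with the occlusion that were given this plant (PN), and they entered the fit only to estimate the spread between libraries. Libraries carry the name of their group and the final code of their title: MCAO 3B, 6B and 7A, and sham 4B, 5B and 9A. For strain, age, brain region, hemisphere, duration of occlusion and time of sampling, nothing is given in the sources used here. The labels do not state whether each library is 1 animal, so a p-value here reflects the spread between these libraries, part of which may be technical.

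Occlusion of the middle cerebral artery cuts off blood to a large part of the striatum and the overlying cortex, and is a widely used rodent model of ischaemic stroke. In the core of the lesion neurons die of energy failure and excess glutamate, while the surrounding tissue switches on stress and early response genes. Microglia and astrocytes then become reactive and blood leukocytes enter. Reperfusion, which the title of the series names, returns the blood and brings oxidative damage of its own. The comparison of occluded with sham-operated rats asks which transcripts differ after this injury.

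Genes are listed by Ensembl ID alone. None of the 32883 IDs could be paired with a symbol in the rat gene table used here, so the genes below are described by level and direction and not by function. The labelled tissue could not be checked against brain markers for the same reason. At most 2 IDs in each direction are named: those with the smallest p-values.

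FPKM is already scaled to library size, and its sums over the 6 libraries ran from 387893 (MCAO 7A) to 414763 (sham 4B). Between 13934 (sham 5B) and 14685 genes (MCAO 3B) reached 1 FPKM. The 50 most abundant genes took 11.1% of the sum in sham 5B, 11.8% in sham 9A and 12% in sham 4B, against 12.2% in MCAO 7A, 13.3% in MCAO 6B and 13.9% in MCAO 3B. All MCAO libraries were thus above all sham libraries in this share. The single most abundant gene of each library reached 1652 to 2686 FPKM in sham and 3118 to 5677 FPKM in MCAO. The absolute depth is unknown. Judged from the steps between low values, which rests on 19 to 21 genes per library, the other 5 libraries were 1.15 to 1.28 times as deep as MCAO 3B.

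Group membership was only partly visible in how alike the libraries were. Across the 14493 genes, MCAO 3B and MCAO 6B correlated best with each other (Pearson r of log2(FPKM + 1) = 0.9458), and sham 4B and sham 5B correlated best with sham 9A. By r, MCAO 7A and sham 9A were the closest of all 15 pairs by a small margin (r = 0.9469), although they belong to different groups. By the median absolute log2 difference this pair (0.279) came after sham 5B and 9A (0.262) and MCAO 3B and 6B (0.264). The most distant pair by r was MCAO 7A and sham 4B (r = 0.8979). Averaged over pairs, 10.5% of genes lay at least 2-fold apart between an MCAO and a sham library, against 7.5% between MCAO libraries and 8.08% between sham libraries. The ranges overlapped: 6.58% to 15.6% between groups, 6.93% to 8.35% within MCAO and 6.53% to 9.98% within sham. These values describe 6 libraries, and genes within a library are not independent replicates.

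**Figure D1:**
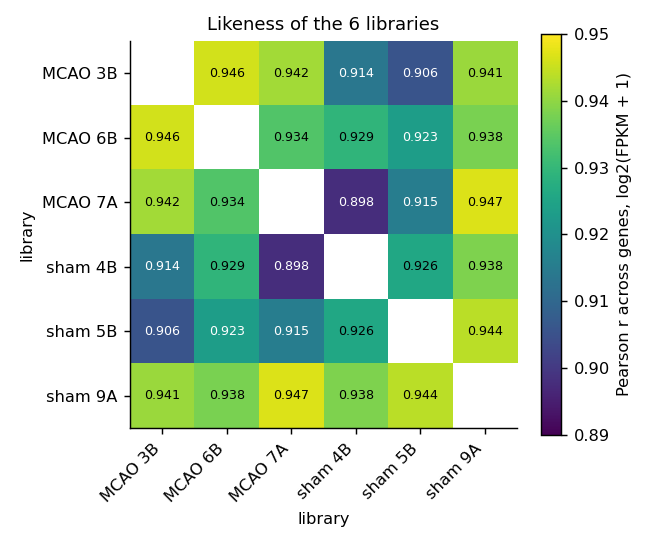
Pearson correlation across 14493 genes of log2(FPKM + 1) for each pair of the 6 libraries, with libraries on both axes and r as colour and number. By r, MCAO 7A and sham 9A form the closest pair (0.947), narrowly ahead of MCAO 3B and 6B (0.946), and MCAO 7A and sham 4B the most distant (0.898).

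Of the 14493 genes, 1 was lower in MCAO and 0 were higher at an adjusted p under 0.05 (limma, Benjamini-Hochberg adjustment), which is 0.0069% of the genes tested. These counts moved with the libraries in the fit. With only the 6 libraries compared, 3 genes were lower and 1 was higher, and without sham 9A 1 was lower and 1 higher (limma, adjusted p under 0.05). Of the 4 genes called with only the 6 libraries, 1 had a value above 0 in all 6. Each gene called without sham 9A was listed at 0 in at least 1 of the 6. At an unadjusted p under 0.05 there were 717 higher genes (4.95%) and 921 lower genes (6.35%), together 11.3%. In tissue RNA of this kind, fewer cells of a type and less RNA per cell cannot be told apart.

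The gene that was called, ENSRNOG00000054459, was at 22.9 FPKM in sham 4B, 28.7 in sham 5B and 24.7 in sham 9A. It was listed at 0 in MCAO 3B, 6B and 7A (limma, adjusted p = 9.47e-06), and also in all 3 PN libraries. No fold is given against a group at 0, because an FPKM of 0 may be an estimate that failed. The gene passed the filter on low values through the sham libraries alone, so the filter itself favours a difference. Values of 0 throughout a group add no spread, so this p-value does not reflect a measured spread in MCAO or PN. In the fit of only the 6 libraries, the adjusted p of this gene was 0.000253 (limma). When genes listed at 0 in any of the 9 libraries were left out, 0 genes were called (limma, smallest adjusted p = 0.14) and 1613 were at an unadjusted p under 0.05.

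Second by p-value among the lower genes was ENSRNOG00000056374. Sham 4B had 14.2 FPKM, sham 5B 11.3 FPKM and sham 9A 12.9 FPKM, while MCAO 3B, 6B and 7A had 3.29, 2.25 and 1.42 FPKM. All 3 MCAO libraries were far below all 3 sham libraries, and no value lay between 3.29 and 11.3 FPKM. On the log2(FPKM + 1) scale the difference was -2.09 with a standard error of 0.26 and a 95% interval of -2.68 to -1.50. It did not pass (limma, adjusted p = 0.116).

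The gene with the smallest p-value among the higher ones, ENSRNOG00000032439, was near the lowest levels tested. It was at 1.68, 1.10 and 2.24 FPKM in MCAO 3B, 6B and 7A, was listed at 0 in sham 4B and 5B, and was at 0.141 FPKM in sham 9A. It was tested only because the MCAO libraries reached 1 FPKM, so the filter itself favours a difference and the rank by p-value is a description. The groups did not overlap, and the difference did not pass (limma, adjusted p = 0.168).

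ENSRNOG00000005504, next in that direction, was an abundant transcript. MCAO 3B, 6B and 7A were at 163, 134 and 121 FPKM, and sham 4B, 5B and 9A at 70.0, 73.5 and 91.8 FPKM. The means were 139 ± 22.0 FPKM in MCAO and 78.4 ± 11.7 FPKM in sham (SD, n = 3 each), with no overlap. On the log2(FPKM + 1) scale MCAO was higher by 0.82 with a standard error of 0.17 and a 95% interval of 0.43 to 1.21, which did not pass (limma, adjusted p = 0.231).

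**Figure D2:**
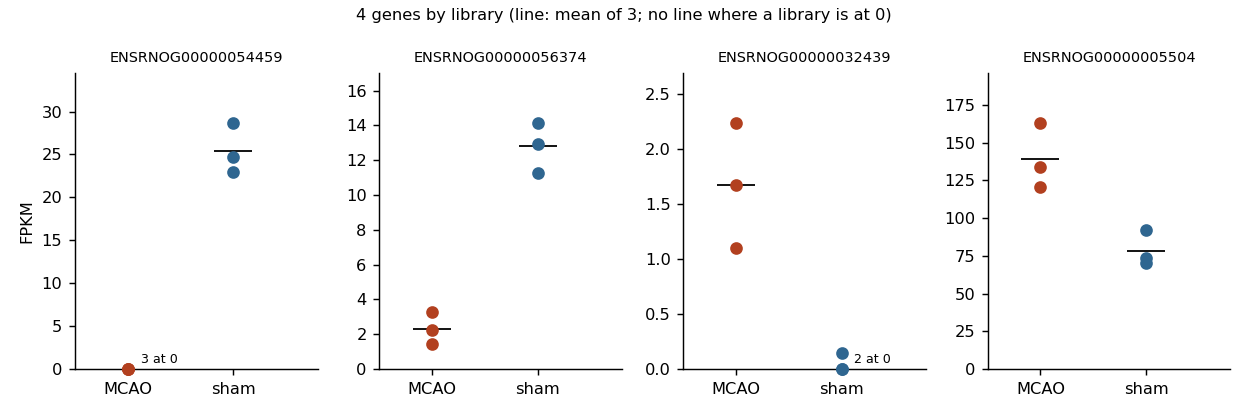
FPKM of the 4 named genes, 1 point per library, with MCAO and sham on the x axis, a separate y axis for each gene from 0, and a line at the mean of 3 libraries where none is at 0. The 2 genes on the left are lower in all 3 MCAO libraries than in any sham library, and the 2 on the right are higher.

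ENSRNOG00000054459 was not alone in being listed in 1 group and at 0 in the other. Over all 32883 genes, 65 had a value in all 3 sham libraries and 0 in all 3 MCAO libraries, and 42 had the opposite arrangement. Most were at very low levels: only 6 genes were at 1 FPKM or more in all sham libraries and at 0 in all MCAO libraries, and only 1 gene the other way round. That gene was at 14.8, 7.71 and 26.9 FPKM in MCAO 3B, 6B and 7A. Of these 7 genes, 6 were at 1 FPKM or more in at least 1 PN library. The exception was ENSRNOG00000054459. The other 6 did not pass (limma, adjusted p from 0.169 to 0.296). All 7 were tested only through the group in which they have values, so the filter itself favours a difference.

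Most differences between the groups were small. The median size of the difference was 0.246 on the log2(FPKM + 1) scale, close to the median standard error of 0.253. In 567 genes (3.91%) the group means on that scale were at least 2-fold apart, 302 higher and 265 lower in MCAO. Differences of at least 4-fold numbered 10 higher and 19 lower. Of the 567 genes, 43.6% had overlapping groups. Those without overlap were 134 higher genes (0.925% of the genes tested) and 186 lower genes (1.28%). Without regard to size, the groups did not overlap in 1253 genes that were higher in MCAO (8.65%) and in 1637 that were lower (11.3%), together 19.9%. On the log2(FPKM + 1) scale, a difference of 2-fold or more, up or down, lay outside the 95% interval for 63% of genes. One of 4-fold or more lay outside it for 94.9%. This scale understates the folds of low genes, so larger folds in FPKM are not excluded for them.

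**Figure D3:**
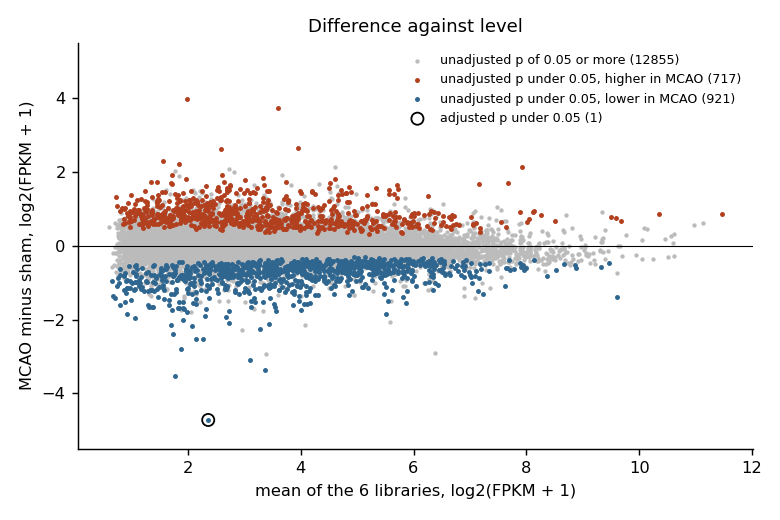
Difference of MCAO minus sham (y axis, log2(FPKM + 1)) against the mean of the 6 libraries (x axis, same scale), 1 point per gene. Coloured points are the 717 higher and 921 lower genes at an unadjusted p under 0.05, and the circle marks ENSRNOG00000054459, the 1 gene past the adjusted threshold.

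With all libraries and no rescaling, the direction of the differences varied with the level of the gene. Among the 4090 genes with a mean under 5 FPKM over the 6 libraries, 251 were higher and 198 lower in MCAO at an unadjusted p under 0.05. Among the 5854 genes at 5 to 20 FPKM, 265 were higher and 370 lower. Among the 3892 genes at 20 to 100 FPKM, 169 were higher and 304 lower, and among the 657 genes at 100 FPKM and over, 32 were higher and 49 lower. The share of genes at that p differed little between these levels, from 10.8% to 12.3%, close to the 11.3% of all genes tested. The median difference over all genes of a level went from 0.07 under 5 FPKM through -0.02 and -0.07 to -0.12 at 100 FPKM and over.

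The fall of the median with level was seen with each of the 6 libraries left out in turn, among the 4 libraries whose code ends in B, and with scaling to equal sums or by median of ratios. Leaving out MCAO 3B, the medians at the 4 levels were 0.02, -0.04, -0.06 and -0.11, without sham 5B 0.05, -0.03, -0.08 and -0.15, and with median-of-ratios scaling 0.08, 0.00, -0.04 and -0.10. Quantile normalization, which gives every library the same distribution and so draws these medians towards 0 by construction, gave 0 to -0.04. The split by direction at an unadjusted p under 0.05 moved with single libraries. Under 5 FPKM, 55.9% of such genes were higher in MCAO with all libraries, 26.1% without MCAO 3B and 39.9% without sham 5B. Over the 4 levels the share fell without MCAO 6B (66.7%, 51.9%, 35.3% and 31.5%). It showed no steady fall without MCAO 3B (26.1%, 19.6%, 22.9% and 24.3%) or with quantile normalization (48.6%, 45.6%, 46.2% and 48.8%). At 20 to 100 FPKM the share was below 50% with each of the 6 libraries left out in turn, from 22.9% to 43.6%, but 55.7% among the 4 libraries whose code ends in B.

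The spread within the groups was similar. The median SD on the log2(FPKM + 1) scale was 0.255 in MCAO and 0.268 in sham, and 47% of genes had the larger SD in MCAO. The 3 MCAO libraries spanned at least 2-fold in 2182 genes (15.1%) and the 3 sham libraries in 2329 (16.1%). At least 4-fold spans numbered 300 and 361. In the sham group the library farthest from the other 2 in genes spanning 2-fold was sham 4B for 1041 of them (44.7%), sham 5B for 776 and sham 9A for 512. In the MCAO group these counts were more even, 807 for MCAO 7A, 774 for MCAO 6B and 601 for MCAO 3B. Sham 4B was also the highest or lowest of all 6 libraries in 44% of the genes tested, against 25.2% for sham 9A and 30.3% to 33.8% for the other 4.

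The number of differing genes and their direction varied with the libraries that entered. With all libraries 1638 genes were at an unadjusted p under 0.05; without sham 5B there were 1054, with 309 higher and 745 lower. Leaving out MCAO 3B gave 1108, with 249 higher and 859 lower. The genes lower in MCAO varied less, from 626 without MCAO 6B to 859 without MCAO 3B, than the genes higher in MCAO, from 249 without MCAO 3B to 790 without sham 9A. Of the 14493 genes tested, 501 were at an unadjusted p under 0.05 with each of the 6 libraries left out in turn. They are 30.6% of the 1638 and always had the same sign. Of these, 363 were lower and 138 higher in MCAO. The groups did not overlap in 360 of the lower and 134 of the higher genes, so no library left out could turn their sign. The median difference was -0.89 in the lower genes, of which 141 were at least 2-fold lower, and 0.93 in the higher genes, of which 55 were at least 2-fold higher. These fits share most of their libraries, so the 501 genes are a description of these 6 libraries.

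**Figure D4:**
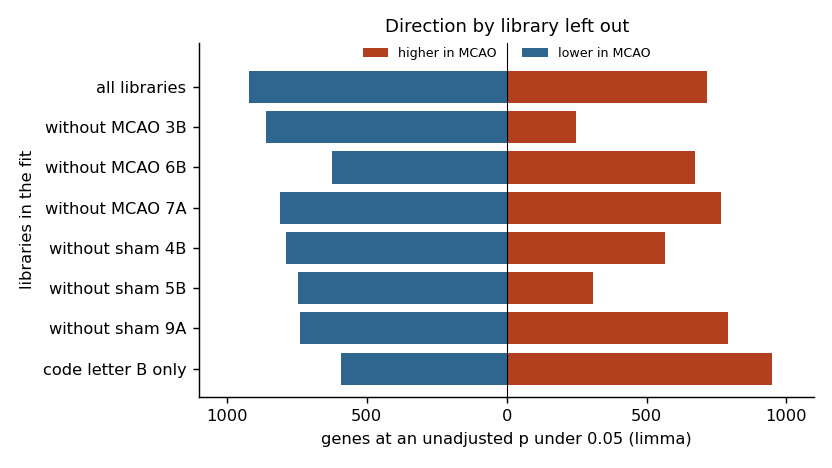
Number of genes at an unadjusted p under 0.05 (x axis, limma) that were higher (right) or lower (left) in MCAO, with all libraries, with each of the 6 libraries left out, and with only the 4 libraries of code letter B. The bars for higher genes are shortest without MCAO 3B (249) and without sham 5B (309), and higher genes outnumber lower ones without MCAO 6B (674 and 626), without sham 9A (790 and 740) and with code letter B only (947 and 591).

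The sample codes end in A or B, a letter that no label explains. Among the libraries compared, MCAO 7A and sham 9A carry letter A. All PN libraries carry it too. The column of sham 9A also has a name that starts unlike those of the other sham libraries. Within the PN group the same is true of 1 column. What the letter and the names mark was not tested. With the letter as a covariate, 1568 genes were at an unadjusted p under 0.05, 650 higher and 918 lower in MCAO. ENSRNOG00000054459 was the 1 gene called (limma, adjusted p = 9.11e-05). The letters are split alike between MCAO and sham, so this covariate could change only the estimated spread and not the differences themselves. Among the letter B libraries alone, 2 MCAO against 2 sham, 1538 genes were at that p, but 947 were higher and 591 lower. There, 2 genes were called (limma), 1 higher and 1 lower, and each is listed at 0 in at least 1 of the 6 libraries. Letter A holds 1 MCAO and 1 sham library and allows no test of MCAO against sham.

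Because the letters part the libraries into separate sets, the difference of MCAO 7A from sham 9A could be set beside that of MCAO 3B and 6B from sham 4B and 5B with no library in common. Across the 14493 genes these differences correlated at a Pearson r of 0.322 (Spearman rho 0.359), and 63.1% of genes had the same sign in both. Of 953 genes at least 2-fold apart in letter A, 72.3% had the same sign in letter B, 436 lower and 253 higher in both. Of 937 genes at least 2-fold apart in letter B, 72.4% had the same sign in letter A. Here the lean was the other way, with 251 lower and 427 higher in both. At least 2-fold apart in both were 249 genes, of which 127 were lower in both, 68 higher in both and the remainder opposite in sign. These are descriptions across genes, which are not independent replicates, and the libraries of a letter may share more than their group.

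**Figure D5:**
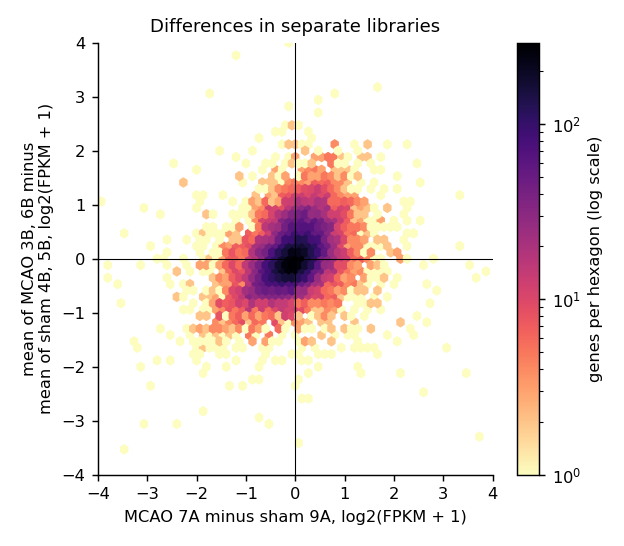
Difference of MCAO 7A minus sham 9A (x axis) against the mean of MCAO 3B and 6B minus the mean of sham 4B and 5B (y axis), both in log2(FPKM + 1), with colour for the number of genes per hexagon on a log scale. The cloud leans along the diagonal (Pearson r = 0.322), and 10 genes lie outside the range shown.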

How the data were processed

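RNA of rat brain tissue was sequenced after enrichment on oligo(dT) beads, per the labels' protocols. The authors deposited 1 table of FPKM values, per the file headers, with 1 column per library. Tools named in the submitters' processing notes, with no role stated, are StringTie 1.3.1, HISAT2, Bowtie2 2.2.8 and fastp 0.18.0. Genome build, annotation release and strand setting: not given in the sources used here. Columns were matched to samples by the code that ends their names. For 7A, which ends 1 MCAO and 1 PN title, the start of the column name decided, as it recurs in other columns of the same group.

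The deposited FPKM were taken without rescaling as log2(FPKM + 1), a scale that understates the fold changes of low genes. Group means were fitted to all 9 libraries with limma 3.58.1 in R 4.3.3, using its mean-variance trend. Tests were two-sided, and p-values were adjusted over all genes tested with a threshold of 0.05. FPKM keeps no read numbers, so no counting interval is given. Relative depth was read from low values under 0.15 FPKM, whose ratios between libraries pile up where read numbers are equal. The limma fit was also run on simulated libraries with known changes. These held no genes at 0 in a whole group, so that run does not cover such genes. Descriptions and figures were made in Python 3.11.15 with numpy 2.4.6, pandas 2.3.3, scipy 1.17.1 and matplotlib 3.10.9.

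The comparison, gene lists and rules were chosen with earlier results of these data known. The gene lists and the rule for named genes need symbols and could not be applied, so at most 2 IDs per direction are printed, by smallest p. No sequence is shown for the same reason. The alternatives were other pseudocounts, filters, scalings, weights and covariates, only the 6 libraries, and each library left out. The fit of the letter B libraries alone was added after seeing the data.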

Additional observations from a re-analysis of the deposited data

How the results depend on the processing

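The count of 1 called gene was the same under 9 alternatives that kept all libraries of the comparison. It became 4 in a fit of only the 6 libraries (3 of these 4 genes are listed at 0 in a whole group), 0 without genes listed at 0, 2 among the letter B libraries, and 1 to 3 with 1 library left out. Every gene called among the letter B libraries or with 1 library left out is listed at 0 in at least 1 of the 6 libraries. ENSRNOG00000054459 was called under every alternative that kept it. These fits share its values of 0 in the MCAO and PN libraries, so the repeated call adds no separate support. Genes at an unadjusted p under 0.05 numbered 1054 (without sham 5B) to 1576 (without MCAO 7A) with 1 library left out. They numbered 1967 in the fit of only the 6 libraries, 944 higher and 1023 lower, and 2062 with weights on the libraries. The largest of these weights, 6.59, fell on PN 7A, outside the comparison. The 6 libraries compared had weights of 0.552 to 1.3. The share of genes at that p that were higher in MCAO was 43.8% with all libraries. It became 50.35% with median-of-ratios scaling and 61.57% among the letter B libraries. With 1 library left out it ran from 22.47% (without MCAO 3B) to 51.85% (without MCAO 6B). The cause was not tested. No alternative turned the direction of the 4 named genes. Leaving libraries out could not do so, because the MCAO and sham values of these genes do not overlap. The letter as a covariate could not do so either, because the letters are split alike between MCAO and sham. The 3 genes that did not pass stayed above the threshold. Their adjusted p (limma) was 0.0579 to 0.492 for ENSRNOG00000056374, 0.0937 to 0.492 for ENSRNOG00000032439 and 0.126 to 0.515 for ENSRNOG00000005504. No paired analysis was possible because the codes of the MCAO and sham libraries share no number. The numbers in the PN codes recur in the MCAO codes, which no label explains. The fit treated all libraries as independent. Because FPKM holds no read numbers, the smallest difference that depth allows was not computed.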
